A study of Mus musculus with 8 samples.

Results

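The transcriptional response of mouse epidermis to the phorbol ester TPA was taken from 6 of the 8 RNA sequencing libraries of the study, chosen by their labels: 2 libraries treated with TPA alone and 4 treated with vehicle. The TPA libraries were 1 from wildtype and 1 from REDD1 knockout mice, each given a topical dose of 4 ug TPA in 200 ul of acetone. The vehicle libraries, 2 wildtype and 2 REDD1 knockout, had received 200 ul of acetone. All were female mice of a mixed C57Bl and 129 background, and epidermis was scraped from skin that was harvested 24 h after TPA. No harvest time was given for the vehicle libraries. The other 2 libraries, 1 of each genotype, received 2 ug of the glucocorticoid fluocinolone acetonide 1 h before the same TPA dose. They entered the fit only to share its estimate of the spread. The labels do not say how many animals stand behind a library, so p-values measure only how far these libraries differ, a spread that may be technical.

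TPA binds the C1 domains of protein kinase C isoforms and of a few other diacylglycerol receptors in place of diacylglycerol. In keratinocytes this is known to activate Ras, ERK and the AP-1 transcription factors, and topical TPA is the classical tumour promoter of mouse skin, where it causes epidermal hyperplasia and inflammation. REDD1, the product of Ddit4, is a stress-induced inhibitor of the growth kinase complex mTORC1.

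Values below are CPM, the reads of a gene scaled to a fixed library total with TMM composition factors and not adjusted for gene length, so they compare 1 gene between libraries and not genes with each other. Within a sentence, the TPA values are given for the wildtype and then the knockout library, and the vehicle values for the 2 wildtype and then the 2 knockout libraries. Changes are log2 differences, TPA minus vehicle, over both genotypes, with their standard error from an additive edgeR model, and a gene was called at a Benjamini-Hochberg adjusted p under 0.05. Library totals ranged from 16874233 to 22560098 counts, so that a count of 0 allows up to 3 counts by counting error alone, or between 0.133 and 0.178 unscaled CPM. Ddit4 had 64.2 and 4.44 CPM with TPA, against 128, 117, 18.8 and 18.6 CPM in vehicle, lower in the knockout than in the wildtype within each treatment. The epidermal keratins Krt14, of the basal layer, and Krt10, of the suprabasal layers, were present in every library. The noncoding transcript Gm26917 took 24.2% and 19.0% of all counts in the TPA libraries and between 8.34% and 13.8% in the vehicle libraries. Removing it before scaling kept 99.0% of the calls.

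TPA changed a large part of the measured transcriptome, about evenly in both directions. Of 19251 genes tested, 4472 (23.2%) were called higher and 4380 (22.8%) lower with TPA, together 46% of all tested genes. Every TPA library was above every vehicle library for 5386 genes (28%) and below every vehicle library for 5584 genes (29%). Of the called genes, 1711 (8.89% of tested genes) were higher and 1840 (9.56%) lower by more than 2-fold. The strongest changes were mostly rises: 307 genes rose and 145 fell by more than 8-fold, and 65 rose and 12 fell by more than 64-fold. The median log2 difference over all tested genes was -0.03. Scaling by library size alone moved that median to -0.25 and the calls to 2846 higher and 6432 lower, so that 30.7% of calls were rises, against 50.5% with composition factors. Group medians below are on the first scale and are to be read against -0.03. Counts of list members called are to be read against 23.2% higher and 22.8% lower. Ranked genes were taken only where TPA and vehicle libraries did not overlap. Named list members were taken for the smallest p, which favours this. Where no overlap is stated below, it describes the genes chosen and gives no added support. Values given for library size alone are to be read against its median of -0.25 and its 2846 higher and 6432 lower of 19251 genes.

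The size of the response exceeded the spread between vehicle replicates in both genotypes. On the log2(CPM + 0.5) scale, the median absolute difference between TPA and vehicle was 0.411 in wildtype and 0.379 in knockout skin, against 0.217 between the wildtype vehicle replicates and 0.152 between the knockout vehicle replicates. More than 2-fold differences separated TPA from vehicle for 3056 genes in wildtype and 2715 genes in knockout skin, against 207 and 186 genes between the vehicle replicates of wildtype and knockout skin. The genes that rose by more than 4-fold, 609 in number, together held 3.57% of the counts in each TPA library, against 0.286% to 0.403% in the vehicle libraries. The 510 genes that fell by more than 4-fold held 0.257% and 0.308% of the counts with TPA, against 1.68% to 1.98% in vehicle. All keratin genes together took about the same share, 3.61% and 3.37% with TPA against 3.28% to 3.91% in vehicle. In bulk epidermis, fewer cells of a type and less RNA per cell cannot be told apart, here or in any result below.

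**Figure D1:**
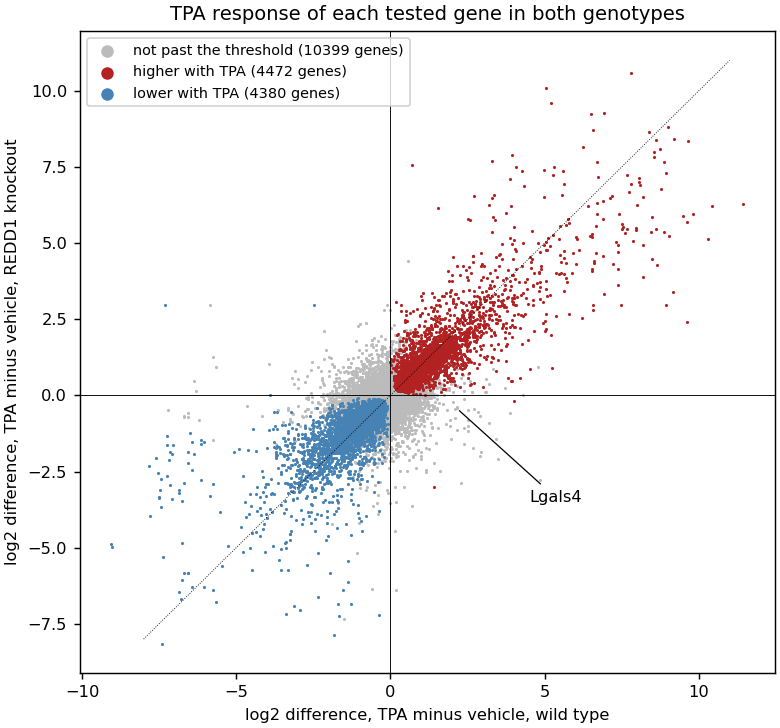
Log2 difference between TPA and vehicle for each of the 19251 tested genes in wildtype (horizontal axis) and REDD1 knockout skin (vertical axis), from the fit with 1 mean per group. Red points were called higher, blue points lower and grey points not called over both genotypes; the dotted line marks equal differences, most called genes lie on the same side of 0 in both genotypes, and Lgals4 is the gene called for a difference between genotypes.

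Letters of the AP-1 type stood near the start of a share of the genes that rose most strongly, described here without a test. The letters TGANTCA were searched on both strands in RefSeq promoter windows (GRCm38.p6, 250 bases before to 50 after a gene's start). They take in the TPA response element, TGACTCA or on the other strand TGAGTCA, and also TGAATCA and TGATTCA. Of 236 windows of genes that rose by more than 8-fold, 48 (20.3%) held TGANTCA, against 921 of 15377 windows (5.99%) of all tested genes and 7.81% of all 32851 windows in the table. Among genes that rose by more than 2-fold the share was 8.59%, and among genes that fell by more than 2-fold it was 8.07%. Of the 106 windows of genes that fell by more than 8-fold, 11 (10.4%) held it, so the share was above that of all tested genes among strong falls too. The cAMP response element TGACGTCA was in 1.27% of the windows of genes that rose by more than 8-fold and in 2.72% of those of all tested genes. The E2F sites TTTGGCGC or TTTCCCGC were in 0.847% and 2.54% of the same sets, and the NF-kB site, searched as a decamer with a free base in its middle, in 2.54% and 0.475%, the last from 6 windows among the strong rises. Each motif was searched by itself, so a window can hold more than 1, and genes of a cluster can share related promoters. A match is a description of these letters and not a binding site shown in these cells.

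**Figure D2:**
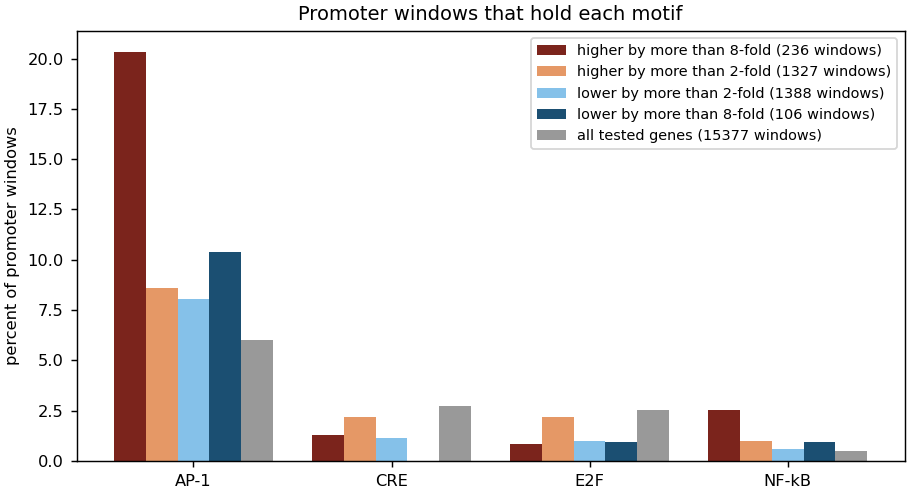
Percent of RefSeq promoter windows (vertical axis) that hold each of 4 motifs (horizontal axis) among genes called higher or lower with TPA by more than 8-fold or 2-fold and among all tested genes. The AP-1 letters TGANTCA stand at 20.3% of windows for rises over 8-fold, against 5.99% for all tested genes.

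The 6 genes with the largest rises whose windows held the AP-1 letters were Sprr2f, Mmp13, Sprr2e, Sprr1b, Mmp3 and Rptn, a choice made after their values were seen. They are shown to give the place of the letters where a strongly rising gene had them. Of the 12 largest rises, 8 had a window and 2 of these held the letters, Sprr2f and Mmp13, so the other 4 genes shown stand below the 12 largest rises. Of the 12 largest falls, 9 had a window and 0 of these held the letters. The 250 bases before each start follow, 5′ to 3′ on the gene's strand, with the AP-1 letters in capitals. They lie in GRCm38.p6 as Sprr2f at chr3:92364937-92365186 (plus strand), Mmp13 at chr9:7272264-7272513 (plus strand), Sprr2e at chr3:92351893-92352142 (plus strand), Sprr1b at chr3:92438780-92439029 (minus strand), Mmp3 at chr9:7445572-7445821 (plus strand) and Rptn at chr3:93393449-93393698 (plus strand).
Sprr2f: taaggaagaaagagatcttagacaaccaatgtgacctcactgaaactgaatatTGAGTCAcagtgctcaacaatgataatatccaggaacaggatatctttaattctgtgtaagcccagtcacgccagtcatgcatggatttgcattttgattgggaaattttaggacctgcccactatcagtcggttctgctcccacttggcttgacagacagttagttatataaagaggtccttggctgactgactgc
Mmp13: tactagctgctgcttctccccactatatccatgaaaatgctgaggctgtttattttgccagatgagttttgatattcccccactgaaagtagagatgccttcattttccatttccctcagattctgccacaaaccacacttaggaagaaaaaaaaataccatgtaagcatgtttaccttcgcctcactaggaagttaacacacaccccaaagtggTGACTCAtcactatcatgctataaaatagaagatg
Sprr2e: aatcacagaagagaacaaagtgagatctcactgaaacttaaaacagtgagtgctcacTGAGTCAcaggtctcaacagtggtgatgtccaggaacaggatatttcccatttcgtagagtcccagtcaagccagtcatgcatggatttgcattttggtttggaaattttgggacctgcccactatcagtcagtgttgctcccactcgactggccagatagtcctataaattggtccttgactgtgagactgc
Sprr1b: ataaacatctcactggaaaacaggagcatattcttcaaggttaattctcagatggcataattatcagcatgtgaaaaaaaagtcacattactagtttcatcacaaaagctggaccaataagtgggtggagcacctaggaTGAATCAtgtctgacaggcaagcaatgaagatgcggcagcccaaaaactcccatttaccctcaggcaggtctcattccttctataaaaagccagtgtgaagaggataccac
Mmp3: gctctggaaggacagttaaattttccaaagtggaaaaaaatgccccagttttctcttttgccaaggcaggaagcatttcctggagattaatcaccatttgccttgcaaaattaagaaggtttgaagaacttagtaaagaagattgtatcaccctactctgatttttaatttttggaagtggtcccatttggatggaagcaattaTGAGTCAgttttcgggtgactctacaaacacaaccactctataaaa
Rptn: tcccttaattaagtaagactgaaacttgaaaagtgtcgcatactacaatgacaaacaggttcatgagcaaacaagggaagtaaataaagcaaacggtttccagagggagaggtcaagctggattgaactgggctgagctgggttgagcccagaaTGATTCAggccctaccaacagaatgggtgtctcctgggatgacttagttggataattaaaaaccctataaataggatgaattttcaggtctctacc

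The TPA response element began 197 bases before the start in Sprr2f and 193 bases before it in Sprr2e, both of the small proline-rich family of cornified envelope precursors. In Sprr1b, of the same family, the letters TGAATCA began 111 bases before the start. The collagenase gene Mmp13 held the response element 35 bases and the stromelysin gene Mmp3 46 bases before the start. Rptn, which encodes the cornified envelope protein repetin, held the letters TGATTCA 96 bases before its start. The letters in Sprr1b and Rptn are not the TPA response element itself. Sprr2e had 28.8 and 12.7 CPM with TPA, against 0.0565, 0.155, 0.0469 and 0.499 CPM in vehicle. Sprr1b had 225 and 142 CPM with TPA, against 1.24, 1.4, 1.78 and 2.81 CPM in vehicle. Rptn had 595 and 238 CPM with TPA, against 1.53, 1.76, 5.2 and 16.3 CPM in vehicle. All 3 were above every vehicle library in both TPA libraries, as their choice required. Their log2 differences were 6.63 ± 0.54, 6.59 ± 0.24 and 6.28 ± 0.66. Mmp13 had 28.7 and 29.6 CPM with TPA, against 0.0565, 0.0517, 0.0469 and 0.227 CPM in vehicle, where the vehicle values rest on 1 to 5 counts a library. Mmp3 had 49.4 and 127 CPM with TPA, against 0.791, 1.19, 0.891 and 1.13 CPM in vehicle. Its knockout TPA value was above its wildtype TPA value, and both were above every vehicle value, as its choice required.

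The largest rises beyond these proteases and envelope precursors were a myeloid receptor gene, keratins, calprotectin and an enzyme of urate breakdown. Cd300lf, an inhibitory receptor of myeloid cells, had 11.2 and 21.4 CPM with TPA, against 0, 0.0517, 0.0938 and 0 CPM in vehicle, above all vehicle values, where the vehicle libraries held at most 2 counts each. Krt16 (ENSMUSG00000053797; mm10 chromosome 11, 100246091 to 100248902, minus strand), the partner of the Krt6a and Krt6b proteins in activated epidermis, had 4294 CPM in the wildtype TPA library and 3004 CPM in the knockout TPA library, against 16.1 and 15.6 CPM in the wildtype vehicle libraries and 19.7 and 30.3 CPM in the knockout vehicle libraries. The groups did not overlap, as the rule required, and the log2 difference was 7.50 ± 0.26 (edgeR adjusted p = 2.69e-08). S100a8, a calprotectin subunit made by neutrophils and by activated keratinocytes, had 367 and 134 CPM with TPA, against 0.452, 0.466, 1.22 and 3.9 CPM in vehicle. It rose by 7.39 ± 0.61, and its wildtype TPA value was above its knockout TPA value. Uox (ENSMUSG00000028186; mm10 chromosome 3, 146570426 to 146632305, plus strand), urate oxidase, had 30.1 and 11.9 CPM with TPA, against 0.0565, 0, 0.0469 and 0.318 CPM in vehicle. It rose by 7.37 ± 0.56 (edgeR adjusted p = 3.11e-06), and Xdh, the xanthine dehydrogenase that makes urate, rose too and is given with the nucleotide genes. Sprr2g had 56.3 and 28.9 CPM with TPA, against 0.0565, 0.362, 0.375 and 0.363 CPM in vehicle. Lce3f, a late cornified envelope gene, had 24.6 and 9.25 CPM with TPA, against 0.226, 0.103, 0 and 0.182 CPM in vehicle. In each of these genes both TPA libraries were above all 4 vehicle libraries, as the rule that ranked them required. Reads of near-identical copies, as in the Krt6, Sprr2, Lce3 and Gsdmc families, can have been split or dropped in counting, so the values of single copies are uncertain.

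A group of genes was read in TPA skin and barely or not at all in vehicle skin. Of the 8852 called genes, 86 had at most 3 counts in each vehicle library, and 152 had at most 3 counts in each TPA library. The first condition had to hold in 4 libraries and the second in only 2, so these numbers cannot be compared. By CPM with TPA, the first group was led, apart from Cd300lf and Lce3d, by Lce3b, Pf4, Cdhr1 and Defb3. The beta-defensin gene Defb3 had 9.06 and 3.91 CPM with TPA, against 0, 0, 0 and 0.0908 CPM in vehicle. Lce3b had 18.3 and 4.13 CPM with TPA, against 0, 0, 0 and 0.0908 CPM in vehicle. Both were at a count of 0 in 3 of the 4 vehicle libraries, so no fold is given. Pf4, a chemokine of platelets and megakaryocytes that macrophages also make, had 5.55 and 12.4 CPM with TPA, against 0.113, 0.103, 0 and 0.136 CPM in vehicle. The photoreceptor cadherin gene Cdhr1 had 12.2 and 11 CPM with TPA, against 0.0565, 0.155, 0.141 and 0 CPM in vehicle (edgeR adjusted p = 3.50e-07).

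**Figure D3:**
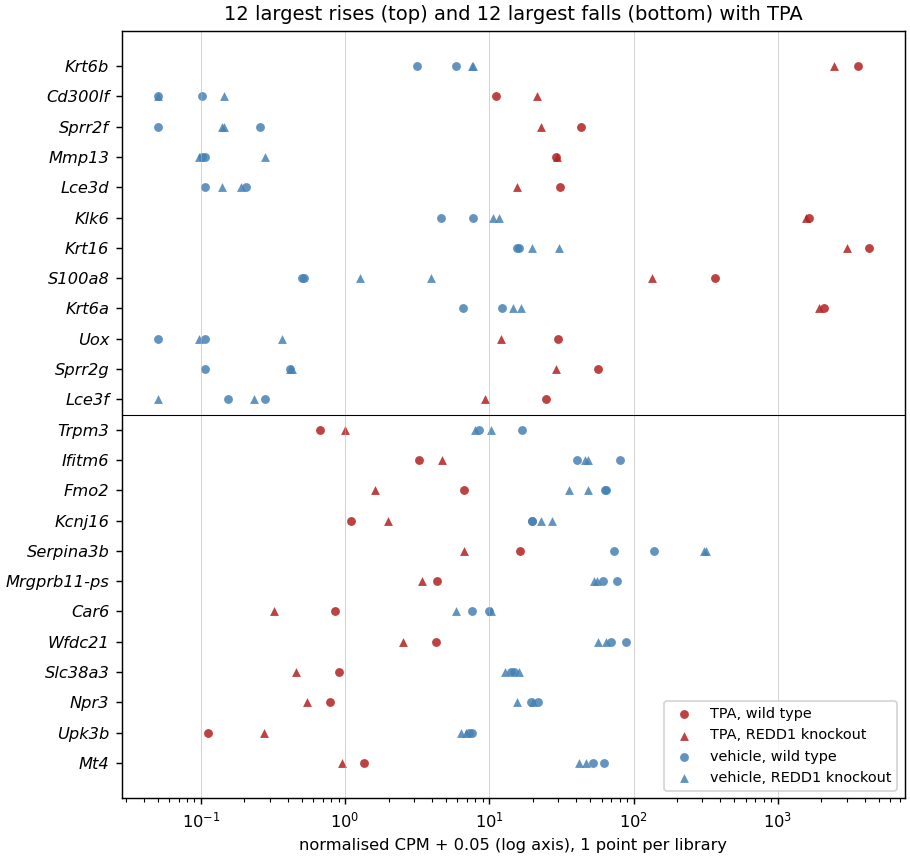
Normalised CPM plus 0.05 (log axis) in each TPA library (red) and vehicle library (blue) of wildtype (circles) and REDD1 knockout skin (triangles) for the 12 largest rises (upper rows) and 12 largest falls (lower rows) by log2 difference. In all 24 genes the TPA points lie on 1 side of all 4 vehicle points, as the rule that chose them requires.

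The largest falls included channels, a drug-metabolising enzyme and protease inhibitors. Kcnj16 (ENSMUSG00000051497; mm10 chromosome 11, 110968033 to 111027968, plus strand), an inwardly rectifying potassium channel, had 1.05 CPM in the wildtype TPA library and 1.93 CPM in the knockout TPA library, against 19.6 and 19.8 CPM in the wildtype vehicle libraries and 27 and 22.8 CPM in the knockout vehicle libraries. Both TPA libraries were below every vehicle library, as the rule required for all the largest falls. The log2 difference was -3.88 ± 0.20 (edgeR adjusted p = 2.93e-07). Fmo2, a flavin-containing monooxygenase, had 6.6 and 1.57 CPM with TPA, against 63.9, 62.9, 48.5 and 35.8 CPM in vehicle. Serpina3b, a serine protease inhibitor, had 16.3 and 6.64 CPM with TPA, against 73.4, 138, 318 and 309 CPM in vehicle, with knockout vehicle above wildtype vehicle. Both were lower in each TPA library than in any vehicle library, with log2 differences of -3.83 ± 0.27 and -3.88 ± 0.58. Ifitm6, of the interferon-induced transmembrane family, had 3.21 and 4.67 CPM with TPA, against 40.2, 80.2, 46.1 and 48.1 CPM in vehicle. The cation channel gene Trpm3 had 0.616 and 0.943 CPM with TPA, against 8.48, 16.9, 10.2 and 7.85 CPM in vehicle. Mrgprb11-ps, annotated as a pseudogene of the Mas-related receptors, had 4.25 and 3.37 CPM with TPA, against 61, 76.8, 56 and 53.5 CPM in vehicle, and fell by 4.02 ± 0.14 on the log2 scale (edgeR adjusted p = 2.92e-08). Among genes with at most 3 counts in each TPA library, those with the most CPM in vehicle were Krt32, Npy1r, Serpinb9b, Akr1c19, Serpina3d-ps and Grin2a. The hair-type keratin gene Krt32 had 0.123 and 0.135 CPM with TPA, against 5.2, 4.86, 3.66 and 4.99 CPM in vehicle. The neuropeptide Y receptor gene Npy1r had 0 and 0.135 CPM with TPA, against 3.11, 3.72, 3.7 and 5.13 CPM in vehicle. Grin2a, an NMDA receptor subunit, had 0.0616 and 0.0449 CPM with TPA, against 1.87, 1.19, 2.58 and 2.91 CPM in vehicle.

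Genes were also ranked by CPM gained rather than by fold, with identifier, Gm and Rik names left out. The 8 that led the rises were 5 keratins, 2 kallikrein proteases, Klk6 and Klk7, and a cathepsin. Gm26917, left out by its name, was called higher too, and its share of the counts is given above. Klk7, a protease of desquamation, had 1900.1 and 1876 CPM with TPA, against 382, 527, 537 and 459 CPM in vehicle, a log2 difference of 1.99 ± 0.13 (edgeR adjusted p = 1.48e-06). Krt17, a stress keratin also found in hair follicles, had 5577 and 5098 CPM with TPA, against 508, 691, 555 and 549.8 CPM in vehicle, a log2 difference of 3.21 ± 0.14 (edgeR adjusted p = 1.27e-07). Ctsl, the lysosomal protease cathepsin L, had 1575 and 1863 CPM with TPA, against 219, 252, 254 and 236 CPM in vehicle, a log2 difference of 2.83 ± 0.09 (edgeR adjusted p = 2.19e-08). In these 3 genes the groups did not overlap, as the rule required for the genes ranked by CPM too. Among the losses, the suprabasal keratin gene Krt77 had 3848 and 2872 CPM with TPA, against 10929, 11307, 9957 and 8484 CPM in vehicle. Krt10 had 3187 and 1903 CPM with TPA, against 9763, 9715, 8443 and 7910.4 CPM in vehicle. Flg2, a filaggrin-related barrier protein, had 4750.1 and 4093 CPM with TPA, against 9109, 11093, 10502 and 8736 CPM in vehicle. These 3, made above the basal layer, were lower in both TPA libraries than in any vehicle library. The basal keratin gene Krt15 had 172 and 379.6 CPM with TPA, against 2045, 1977, 2273 and 2242 CPM in vehicle. Ahnak, a giant scaffold protein, had 9745 and 8937 CPM with TPA, against 13727, 14359.7, 14182 and 13013 CPM in vehicle, a log2 difference of -0.57 ± 0.10 (edgeR adjusted p = 0.00117). Rn7sk, the small nuclear RNA that holds an elongation factor of RNA polymerase inactive, had 2882 and 3143 CPM with TPA, against 5170.4, 7194, 6493 and 5697 CPM in vehicle. Both TPA values of these genes, too, lay below all vehicle values, again by the rule.

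Among genes for phorbol ester receptors and for diacylglycerol kinases, which use up diacylglycerol, 13 of the 14 that were called fell. Of 27 tested genes for phorbol ester receptors, the protein kinase C family and diacylglycerol kinases, 1 was called higher and 13 lower, with a median log2 difference of -0.40. Without the wildtype TPA library 6 were lower and the median was -0.27. The members had a median span of 71412 bases, and of protein-coding genes in the longest class of span, from 69994 bases, 35.7% were called lower, against 22.8% of all tested genes. The part of length in these falls was not tested. Prkcb, a conventional isoform that diacylglycerol and calcium activate, had 13.7 and 16.4 CPM with TPA, against 40.8, 47.6, 43.2 and 39.5 CPM in vehicle. Rasgrp1, a diacylglycerol-activated exchange factor for Ras, had 43.4 and 38.2 CPM with TPA, against 89.3, 97.9, 84.1 and 83.8 CPM in vehicle. The diacylglycerol kinase gene Dgkh had 14.9 and 18 CPM with TPA, against 35.5, 37.4, 38.4 and 35 CPM in vehicle. All 3 were lower in each TPA library, with log2 differences of -1.50 ± 0.12, -1.12 ± 0.08 and -1.15 ± 0.11. The 1 member called higher was Prkcq, protein kinase C theta, with 20.1 and 18.8 CPM with TPA, against 5.31, 4.91, 7.92 and 5.95 CPM in vehicle and a difference of 1.70 ± 0.16 (edgeR adjusted p = 1.17e-05).

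Feedback and effector genes of the Ras-ERK pathway were split between rises and falls. Of 24 tested, 10 were higher and 7 lower, 4 without the wildtype TPA library, with a median of 0.08 that turned to -0.14 with library size alone. The ETS factor gene Etv4 had 28.6 and 26.6 CPM with TPA, against 6.05, 4.71, 4.64 and 4.95 CPM in vehicle, a log2 difference of 2.44 ± 0.16 (edgeR adjusted p = 1.06e-06). The ETS factor gene Elk3 had 16.5 and 20.8 CPM with TPA, against 5.43, 5.07, 4.69 and 4.54 CPM in vehicle, a log2 difference of 1.92 ± 0.14 (edgeR adjusted p = 2.71e-06). Phlda2, of the pleckstrin homology-like family, had 4.93 and 5.75 CPM with TPA, against 0.622, 0.414, 0.281 and 0.409 CPM in vehicle. These 3 were higher in both TPA libraries than in any vehicle library. Spry1, a feedback inhibitor of receptor tyrosine kinase signalling, had 23.5 and 21.3 CPM with TPA, against 56.9, 57.3, 49.8 and 48.3 CPM in vehicle, and was lower in both. Polyamine metabolism, in which TPA induction of ornithine decarboxylase is a classical readout, had 5 genes higher and 5 lower of 15, and 2 lower without the knockout TPA library. Its median was 0.05, and was -0.18 with library size alone and -0.06 without wildtype vehicle replicate 1. Odc1, ornithine decarboxylase itself, had 22.6 and 16.9 CPM with TPA, against 8.25, 9.78, 6.66 and 4.81 CPM in vehicle, and rose by 1.44 ± 0.16 (edgeR adjusted p = 3.66e-05). Smox, spermine oxidase, had 172 and 132 CPM with TPA, against 25.7, 21.1, 26.3 and 28.6 CPM in vehicle. Srm, spermidine synthase, had 40.4 and 35.6 CPM with TPA, against 15.5, 14.6, 12.9 and 14.5 CPM in vehicle. The 3 enzymes were above every vehicle value in both TPA libraries. Atp13a2, a lysosomal polyamine exporter, had 51.1 and 57.1 CPM with TPA, against 101, 82.1, 84.8 and 87.8 CPM in vehicle. It was below every vehicle value.

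Wnt pathway genes fell more often than they rose, 18 lower and 5 higher of 45, with a median of -0.39. With library size alone or without the wildtype TPA library 2 were higher, and without the knockout TPA library 3. Lgr6, an R-spondin receptor of epidermal stem cells, had 27.1 and 20.4 CPM with TPA, against 155, 146, 117 and 109 CPM in vehicle, a log2 difference of -2.47 ± 0.12 (edgeR adjusted p = 2.28e-07). The ligands Rspo3 and Wnt10b fell as well. Rspo3 had 0.308 and 0.404 CPM with TPA, against 8.65, 6.36, 6.19 and 6.04 CPM in vehicle. Wnt10b had 1.48 and 0.898 CPM with TPA, against 16.3, 12.5, 6.33 and 7.17 CPM in vehicle, with knockout vehicle below wildtype vehicle. For each of the 3 genes the TPA values lay below all vehicle values. Of 13 Hedgehog pathway genes, 4 rose and 6 fell (median -0.25; -0.41 without the knockout TPA library and -0.14 without wildtype vehicle replicate 2). With library size alone 1 rose, and 2 rose without the wildtype TPA library or without knockout vehicle replicate 1. Their median span was 73849 bases, against 23732 over protein-coding genes, and the part of length was not tested. The list had 2 coreceptor genes going in opposite directions. Gas1 had 49.8 and 51.4 CPM with TPA, against 35.6, 24.7, 31.1 and 34.5 CPM in vehicle, and was above all vehicle values in both TPA libraries. Cdon had 14.5 and 13.4 CPM with TPA, against 33.7, 33.9, 35.1 and 33.4 CPM in vehicle, and was below them.

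Growth factor genes were called in both directions, against 23.2% higher and 22.8% lower over all tested genes. Of 51 BMP and TGF-beta pathway genes, a list that also holds the EGFR ligand Tgfa, 19 rose (37.3%) and 14 fell (27.5%). Their median of -0.09 turned to 0.05 without the wildtype TPA library or without wildtype vehicle replicate 2, and without the knockout TPA library 9 were lower. Both activin subunit genes rose: Inhba had 9.18 and 12.3 CPM with TPA, against 0.396, 0.828, 1.08 and 0.726 CPM in vehicle. Inhbb had 29.2 and 36.1 CPM with TPA, against 8.08, 9.78, 9.42 and 11.5 CPM in vehicle. Tgfa had 214 and 181 CPM with TPA, against 71.4, 77.3, 77.3 and 64 CPM in vehicle. These 3 were above all vehicle values in both TPA libraries. The coreceptor gene Tgfbr3 had 45.1 and 47.4 CPM with TPA, against 91, 93.4, 93.6 and 89.9 CPM in vehicle, below them. Of 44 ligands and receptors of the FGF, IGF, PDGF, VEGF, neurotrophin and related families, 12 rose (27.3%) and 13 fell (29.5%), close to those shares, with a median of -0.09 (0.03 without the wildtype and -0.18 without the knockout TPA library). Vegfa had 131 and 121 CPM with TPA, against 22.4, 20.8, 17.5 and 27.2 CPM in vehicle, a log2 difference of 2.51 ± 0.15 (edgeR adjusted p = 5.95e-07). Its receptor gene Flt1 had 26 and 17.9 CPM with TPA, against 2.09, 3, 1.59 and 3 CPM in vehicle, a log2 difference of 3.16 ± 0.23 (edgeR adjusted p = 2.39e-06). Neither gene overlapped between groups. Igfbp3, which binds insulin-like growth factors, had 49.6 and 32 CPM with TPA, against 276, 264, 226 and 195 CPM in vehicle, and was the member with the smallest p among the falls (edgeR adjusted p = 2.83e-07). Among 58 semaphorins, ephrins, slits, netrins and their receptors, 21 rose and 17 fell, with a median of 0.17 that was -0.05 with library size alone and 0.05 without the knockout TPA library, and 11 fell without the wildtype TPA library. Sema3d had 63.9 and 76.8 CPM with TPA, against 311, 448, 559 and 436 CPM in vehicle. The receptor tyrosine kinase gene Epha2 had 231 and 204 CPM with TPA, against 110.3, 107, 93.8 and 84.2 CPM in vehicle.

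Genes of protein production and turnover rose in the larger part of their tested members. Of 73 endoplasmic reticulum folding and unfolded protein response genes, 57 were called higher and 1 lower, with a median of 0.53. Of 47 proteasome genes, 34 rose and none fell (median 0.47). Of 77 mitochondrial ribosomal protein genes, 42 rose and 2 fell (median 0.37), and of 65 translation factors 37 rose and 7 fell (median 0.33). These medians stayed above 0 with library size alone, at 0.31, 0.24, 0.14 and 0.10, where the counts of rises were 33, 21, 13 and 20. Without the wildtype TPA library 16 mitochondrial ribosomal protein genes were higher. The median spans of these lists, in the same order, were 18626, 12361, 7905 and 17751 bases, against 23732 over protein-coding genes. Of protein-coding genes in the shortest class of span, up to 7990 bases, 32.8% were called higher and 16.7% lower. The part of length in these rises was not tested. Hspa5, the chaperone BiP of the endoplasmic reticulum, had 468 and 564 CPM with TPA, against 161, 178, 193 and 216 CPM in vehicle. Its cofactor gene Hyou1 had 283 and 321 CPM with TPA, against 107, 100.3, 102 and 116 CPM in vehicle. The disulfide isomerase gene Pdia6 had 151 and 178 CPM with TPA, against 59.5, 64.7, 69.7 and 74.4 CPM in vehicle. None of the 3 overlapped between groups. The isomerase gene P4hb had 626 and 568 CPM with TPA, against 222, 235, 217 and 246 CPM in vehicle. In the proteasome, the catalytic subunit gene Psmb6 had 85.4 and 75.5 CPM with TPA, against 45.5, 50.6, 46.5 and 48.6 CPM in vehicle. The regulator gene Psme3 had 107 and 100.4 CPM with TPA, against 60.1, 61.1, 59.7 and 68.1 CPM in vehicle. The rises were small but even, 0.75 ± 0.08 and 0.73 ± 0.09, with no overlap of the groups. Mrps27 had 19.6 and 20.8 CPM with TPA, against 8.93, 8.54, 9.94 and 10.1 CPM in vehicle. Mrpl12 had 22.3 and 21 CPM with TPA, against 10.4, 8.85, 9.1 and 10.7 CPM in vehicle. Both mitochondrial ribosomal protein genes were above all vehicle values. Among translation factors, Eif2b4, a subunit of the initiation exchange factor, had 52.1 and 46.5 CPM with TPA, against 24.9, 24.5, 22.3 and 22.3 CPM in vehicle. Eif3b had 269.8 and 257 CPM with TPA, against 156, 155, 143 and 145 CPM in vehicle. Eef2k, the kinase that inhibits elongation, moved the other way, with 123 and 115 CPM with TPA, against 261, 230.3, 244 and 209 CPM in vehicle.

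**Figure D4:**
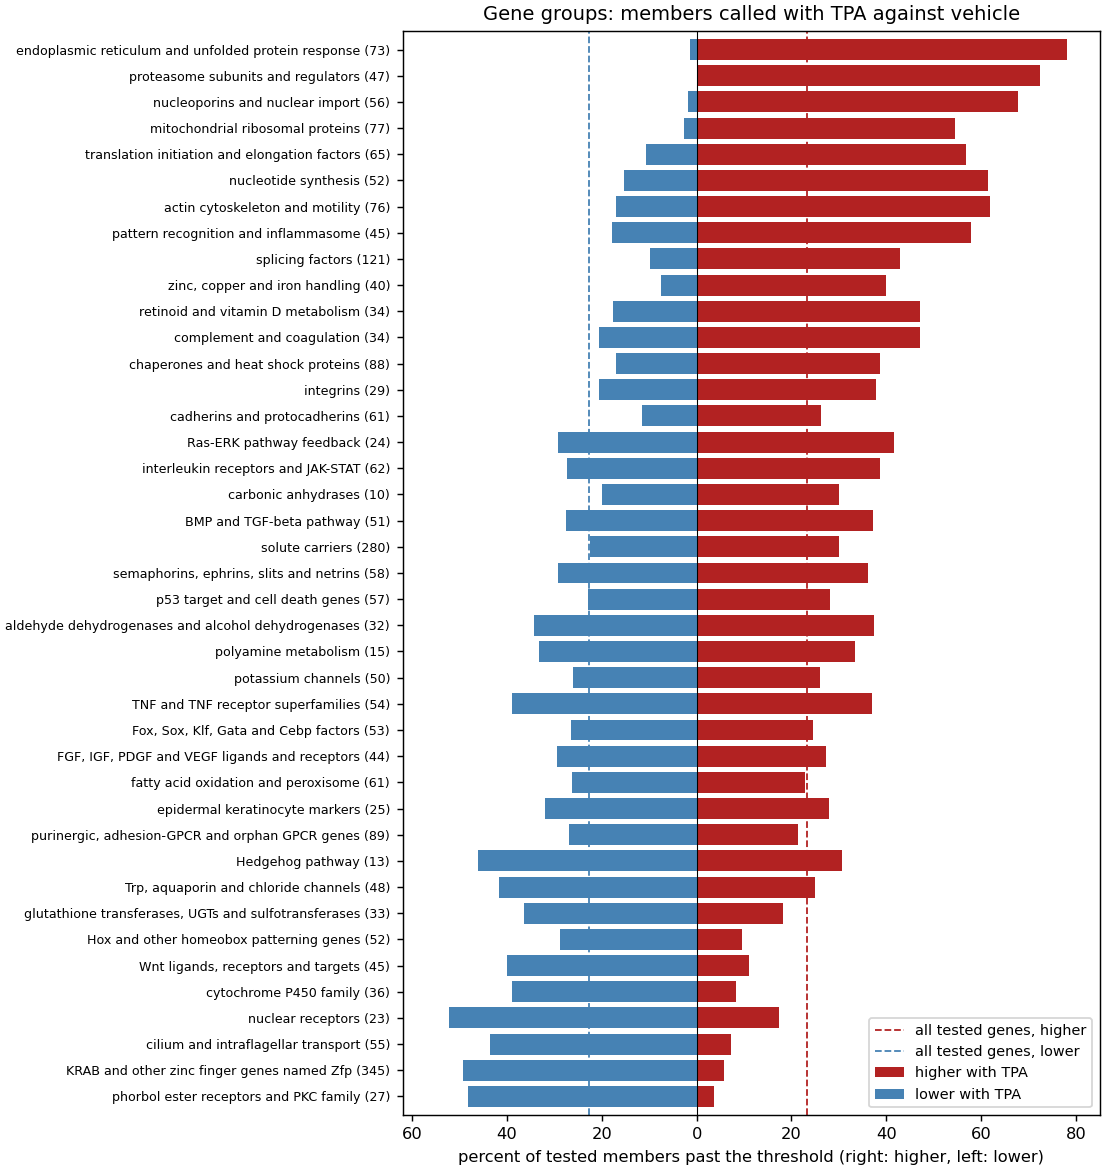
Percent of tested members of each of 41 gene groups (number tested in brackets) called higher (red, to the right) or lower (blue, to the left) with TPA against vehicle; dashed lines mark 23.2% higher and 22.8% lower over all tested genes. Scaling by library size alone lowers the count of rises in most groups and moves the median over all tested genes from -0.03 to -0.25. It turns to below 0 the medians of solute carriers, splicing factors, chaperones, integrins, semaphorins and retinoid genes. The same holds for interleukin receptor, Ras-ERK, polyamine, aldehyde dehydrogenase, cell death and epidermal marker genes.

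Chaperones as a whole moved in both directions. Of 88 chaperone and heat shock genes, a list that shares Hspa5 and others with the one above, 34 rose and 15 fell, with a median of 0.21 (-0.01 and 20 higher, 20 lower with library size alone). The mitochondrial chaperone gene Hspa9 had 219 and 215 CPM with TPA, against 96.9, 107, 108 and 115 CPM in vehicle, above all vehicle values. The small heat shock protein genes Hspb1 and Hspb8 were below all vehicle values: Hspb1 had 29.7 and 28.6 CPM with TPA, against 108, 101, 76 and 79.2 CPM in vehicle. Hspb8 had 72.9 and 79.9 CPM with TPA, against 178, 203, 224 and 231 CPM in vehicle.

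Nuclear transport, RNA splicing and nucleotide supply genes that were called mostly rose. Splicing factors under library size alone did not, on a scale where the median over all tested genes was -0.25. Of 56 nucleoporin and nuclear import genes, 38 rose and 1 fell (median 0.38; 0.15 with 15 higher and 2 lower under library size alone). Ran, the GTPase that drives nuclear transport, had 54.7 and 53.5 CPM with TPA, against 23.7, 26.8, 25.5 and 27.5 CPM in vehicle. Its exchange factor gene Rcc1 had 61.5 and 52.7 CPM with TPA, against 19.3, 21.4, 17.7 and 19.4 CPM in vehicle. The importin gene Kpnb1 had 331 and 317 CPM with TPA, against 157, 169, 155 and 163 CPM in vehicle. All 3 were above every vehicle value. Of 121 splicing factors, 52 rose and 12 fell, with a median of 0.22 that was -0.01 with library size alone, where 21 rose and 24 fell. Without the wildtype TPA library 34 rose and 4 fell, and without the knockout TPA library 32 rose and 9 fell. Snrpa1, a protein of the spliceosomal small nuclear ribonucleoproteins, had 24.2 and 23.2 CPM with TPA, against 11, 12.7, 10.7 and 12.3 CPM in vehicle. Hnrnpab had 194 and 191 CPM with TPA, against 125, 109.5, 107 and 119.6 CPM in vehicle. Of 52 genes of nucleotide synthesis and salvage, 32 rose and 8 fell (median 0.48), and 2 fell without the wildtype and 3 without the knockout TPA library. Rrm2, the regulatory subunit of ribonucleotide reductase, had 47.8 and 46.8 CPM with TPA, against 16.4, 16.3, 19.6 and 16.6 CPM in vehicle. The adenine salvage gene Aprt had 39 and 33.8 CPM with TPA, against 15.1, 16, 14.6 and 14.6 CPM in vehicle. Nme1, a nucleoside diphosphate kinase, had 45.6 and 41.7 CPM with TPA, against 13.9, 15, 14 and 16 CPM in vehicle. These 3 genes were above every vehicle value in both TPA libraries. Xdh, which breaks purines down to urate, had 205 and 239.9 CPM with TPA, against 66.2, 60.7, 88 and 84.9 CPM in vehicle, and rose by 1.58 ± 0.08 (edgeR adjusted p = 3.01e-07).

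Transporter and channel genes were called in both directions, several lists at shares near the 23.2% higher and 22.8% lower of all tested genes. Of 280 solute carrier genes, 84 rose (30.0%) and 63 fell (22.5%), with a median of 0.06 that was -0.16 with library size alone, where 59 rose and 95 fell. The phosphate cotransporter gene Slc34a2 had 199 and 156 CPM with TPA, against 18.8, 24.1, 27.4 and 22.8 CPM in vehicle. Slc16a3, a lactate exporter, had 95.6 and 76.8 CPM with TPA, against 19.8, 17.3, 11.3 and 13.8 CPM in vehicle. Slc6a4, the serotonin transporter, had 7.7 and 4.62 CPM with TPA, against 74.6, 69.1, 45.2 and 36.3 CPM in vehicle. It was below all vehicle values in both TPA libraries, with a log2 difference of -3.18 ± 0.13, while the phosphate cotransporter and lactate exporter were above them, with differences of 2.93 ± 0.14 and 2.48 ± 0.11. The organic anion transporter gene Slco1a5 had 6.41 and 6.42 CPM with TPA, against 0.226, 0.155, 0.188 and 0.272 CPM in vehicle. Of 40 genes of zinc, copper and iron handling, 16 rose and 3 fell (median 0.22; 0.01 with 11 higher and 9 lower under library size alone, and 6 lower without wildtype vehicle replicate 1). The zinc importer gene Slc39a2 had 30 and 31.9 CPM with TPA, against 3.62, 2.74, 1.88 and 3.27 CPM in vehicle. Lcn2, a lipocalin that binds bacterial iron carriers, had 90.1 and 94.4 CPM with TPA, against 0.0565, 0.621, 0.469 and 3.9 CPM in vehicle, the vehicle values spreading widely between libraries and all lying below both TPA values. Hp, haptoglobin, had 5.55 and 8.98 CPM with TPA, against 0, 0.362, 0.281 and 0.817 CPM in vehicle.

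Among 48 Trp, aquaporin and chloride channel genes, 12 rose and 20 fell (median -0.20; -0.09 without the knockout TPA library). Aqp3, the water and glycerol channel of keratinocytes, had 541 CPM in the wildtype TPA library and 458 CPM in the knockout TPA library, against 35.7 and 32.1 CPM in the wildtype vehicle libraries and 41.8 and 52.2 CPM in the knockout vehicle libraries. It rose by 3.64 ± 0.15 (edgeR adjusted p = 7.69e-08). The calcium channel genes Trpc4 and Trpv6 fell. Trpc4 had 0.431 and 0.539 CPM with TPA, against 5.6, 5.22, 4.41 and 3.59 CPM in vehicle. Trpv6 had 17.9 and 15.5 CPM with TPA, against 35.8, 42.3, 41.5 and 34.5 CPM in vehicle. Of 50 potassium channel genes, 13 rose and 13 fell (26% each), near the shares of all tested genes. Their median of -0.04 was 0.16 without the knockout TPA library, and 8 rose both without the wildtype TPA library and with library size alone. Kcnn4, a calcium-activated channel, had 3.88 and 3.91 CPM with TPA, against 0.17, 0.31, 0.422 and 0.499 CPM in vehicle. Kcng4, a modulatory subunit, had 2.34 and 2.47 CPM with TPA, against 14, 12, 18.9 and 13.4 CPM in vehicle. Of 89 purinergic, adhesion and orphan receptor genes, 19 rose (21.3%) and 24 fell (27.0%), again near those shares (median -0.07; 0.03 without wildtype vehicle replicate 2). The nucleotide receptor gene P2ry2 had 6.72 and 11.8 CPM with TPA, against 0.17, 0.207, 0.328 and 0.318 CPM in vehicle, above all vehicle values. The ATP-gated channel gene P2rx2 had 1.29 and 2.38 CPM with TPA, against 21, 22.1, 21.8 and 16.3 CPM in vehicle, below them. The adhesion receptor gene Adgra3 had 59.7 and 68.9 CPM with TPA, against 334, 377, 456 and 392 CPM in vehicle. Gpr35 had 21.6 and 19.5 CPM with TPA, against 2.37, 2.02, 2.48 and 3 CPM in vehicle. Among 10 carbonic anhydrase genes (median -0.21; -0.12 without the knockout TPA library) 2 fell and 3 rose: Car12 had 209 and 172 CPM with TPA, against 45.7, 43.9, 48.2 and 62.6 CPM in vehicle. Car9 had 13.1 and 10.4 CPM with TPA, against 2.6, 1.55, 1.83 and 1.95 CPM in vehicle. Car2 had 2.59 and 3.37 CPM with TPA, against 0, 0, 0.0938 and 0.0454 CPM in vehicle, where the vehicle libraries held 0 to 2 counts each.

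Retinoid genes were called higher more often than lower, and cytochrome P450 genes lower more often than higher, with 12 of 34 and 19 of 36 not called. Of 34 retinoid and vitamin D genes, 16 were higher and 6 lower, with a median of 0.16 that was -0.06 with library size alone, where 13 rose and 13 fell, and 0.40 without the knockout TPA library. Aldh1a3 (ENSMUSG00000015134; mm10 chromosome 7, 66390890 to 66427517, minus strand), a retinaldehyde dehydrogenase that makes retinoic acid, had 113 CPM in the wildtype TPA library and 89.2 CPM in the knockout TPA library, against 0.678 and 1.19 CPM in the wildtype vehicle libraries and 1.03 and 1.09 CPM in the knockout vehicle libraries. The difference was 6.66 ± 0.24 (edgeR adjusted p = 2.92e-08). Rbp2, a cellular retinol-binding protein, had 94.3 and 61.7 CPM with TPA, against 5.71, 7.91, 9.56 and 8.31 CPM in vehicle. Crabp2, which carries retinoic acid to its receptors, had 174 and 189 CPM with TPA, against 33.9, 38.8, 33.9 and 33.8 CPM in vehicle. None of the 3 genes overlapped between groups. Of 36 cytochrome P450 genes, 3 rose and 14 fell, with a median of -0.78 that was -0.12 without the knockout TPA library. Cyp39a1, an oxysterol hydroxylase, had 5.42 and 5.34 CPM with TPA, against 35.2, 31.6, 36 and 29.8 CPM in vehicle. Cyp27a1, a sterol hydroxylase, had 4.01 and 6.91 CPM with TPA, against 18.7, 16.6, 26.5 and 22.4 CPM in vehicle. Cyp4f37 had 2.53 and 3.95 CPM with TPA, against 20.3, 21.5, 25.4 and 22.4 CPM in vehicle.

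Of 33 glutathione transferase, glucuronosyltransferase and sulfotransferase genes, 6 rose and 12 fell (median -0.34; -0.54 without the wildtype and -0.18 without the knockout TPA library), but the member with the smallest p was a rise. Gsta4, a transferase for lipid peroxidation products, had 96.8 and 69.7 CPM with TPA, against 1.19, 0.879, 1.92 and 1.86 CPM in vehicle, and rose by 5.81 ± 0.22 (edgeR adjusted p = 3.67e-08). Sult1a1, a phenol sulfotransferase, had 2.1 and 1.84 CPM with TPA, against 6.56, 6.72, 6.85 and 5.36 CPM in vehicle, and fell. Of 32 aldehyde dehydrogenase, alcohol dehydrogenase and aldo-keto reductase genes, which include Aldh1a3, 12 rose and 11 fell, with a median of 0.06 that was below 0 under 5 of the 17 alternatives, library size alone (-0.17) among them. Aldh18a1, of proline synthesis, had 43.3 and 45.5 CPM with TPA, against 11.5, 10.2, 10.7 and 12.9 CPM in vehicle. The aldo-keto reductase gene Akr1b8 had 18.9 and 16.7 CPM with TPA, against 2.94, 2.9, 2.58 and 2.95 CPM in vehicle. Of 61 fatty acid oxidation and peroxisome genes, 14 rose (23.0%) and 16 fell (26.2%), near the 23.2% and 22.8% of all tested genes. Without the wildtype TPA library 6 rose and 15 fell, and without the knockout TPA library 16 rose and 8 fell, with a median of 0.11 against -0.08 over all libraries. The nuclear receptor genes Ppard and Ppara, both regulators of lipid oxidation, went in opposite directions. Ppard had 114 and 88.8 CPM with TPA, against 40.6, 38, 34.7 and 37.6 CPM in vehicle. Ppara had 7.58 and 7.23 CPM with TPA, against 23.9, 21.4, 28.7 and 31.3 CPM in vehicle. Neither overlapped between groups. Fabp5, the epidermal fatty acid binding protein, had 541 and 392 CPM with TPA, against 36.9, 55.9, 63.5 and 77.1 CPM in vehicle. Cat, catalase, had 47.2 and 56.4 CPM with TPA, against 90, 109, 144 and 137 CPM in vehicle.

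Genes of the actin cytoskeleton and of motility rose, 47 of 76 against 13 that fell, with a median of 0.41 (0.19 with library size alone, 27 higher and 16 lower). Fscn1 (ENSMUSG00000029581; mm10 chromosome 5, 142960343 to 142973185, plus strand), which bundles actin in protrusions, had 110.2 CPM in the wildtype TPA library and 92.1 CPM in the knockout TPA library, against 5.31 and 4.86 CPM in the wildtype vehicle libraries and 7.17 and 9.26 CPM in the knockout vehicle libraries. The difference was 3.94 ± 0.18 (edgeR adjusted p = 1.27e-07). Enah, an actin elongation factor, had 199 and 165 CPM with TPA, against 41.4, 38.7, 44.3 and 46.1 CPM in vehicle. Msn, the membrane linker moesin, had 187 and 205 CPM with TPA, against 60.1, 64.2, 56.7 and 61.3 CPM in vehicle. Marcks, a substrate of protein kinase C that binds actin, had 154 and 167 CPM with TPA, against 25.8, 27.6, 37.3 and 46 CPM in vehicle. None of these overlapped between groups. Of 29 integrin genes, 11 rose and 6 fell, with a median of 0.20 that was -0.01 with library size alone and 0.53 without the wildtype TPA library. Itgb6, whose integrin activates latent TGF-beta, had 39.6 and 45.2 CPM with TPA, against 9.1, 8.28, 7.74 and 8.67 CPM in vehicle. Itga5, the fibronectin receptor subunit, had 20.2 and 25 CPM with TPA, against 6.73, 7.29, 7.03 and 7.35 CPM in vehicle. Itga7, a laminin receptor subunit, had 57.4 and 50.3 CPM with TPA, against 10.3, 7.29, 11.3 and 11.4 CPM in vehicle. Of 61 cadherin and protocadherin genes, 16 rose and 7 fell (median 0.32). With library size alone 6 rose and 11 fell, and without the wildtype TPA library 6 rose and 3 fell. Cdh3, P-cadherin, had 80.6 and 73.1 CPM with TPA, against 41.3, 41.3, 42.7 and 42.5 CPM in vehicle, above all vehicle values. Cdh13, a cadherin without a cytoplasmic domain, had 22.1 and 22.1 CPM with TPA, against 126, 119, 93.4 and 96 CPM in vehicle, below them.

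Cilium and intraflagellar transport genes fell more often than they rose, 24 against 4 of 55, with a median of -0.23. Without the wildtype TPA library 10 were lower and without the knockout TPA library 13. Dync2h1, the motor of retrograde ciliary transport, had 18.9 and 28.6 CPM with TPA, against 44, 46.4, 51.8 and 42.3 CPM in vehicle. Bbs2, a subunit of the BBSome, had 4.75 and 4.62 CPM with TPA, against 11.7, 12.9, 13.6 and 10.5 CPM in vehicle. Bbs10, a chaperonin-like assembly factor of the same complex, was among the 4 rises, with 5.67 and 6.02 CPM with TPA, against 1.98, 1.24, 1.92 and 1.91 CPM in vehicle.

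Zinc finger genes named Zfp, most of them encoding DNA-binding repressors, fell far more often than they rose. Of 345 tested, 170 were called lower and 20 higher, with a median of -0.44. Library size alone gave 222 lower and 12 higher. Without the wildtype TPA library 89 were lower and 12 higher, and without the knockout TPA library 109 were lower and 13 higher. Zfp874b, with the smallest p, had 4.01 and 3.01 CPM with TPA, against 13.7, 13.1, 10.7 and 10.3 CPM in vehicle. Zfp667 had 8.14 and 9.16 CPM with TPA, against 18.4, 20.4, 23.2 and 22.6 CPM in vehicle. Zfp644 had 88.2 and 90.9 CPM with TPA, against 156, 171, 170.0 and 152 CPM in vehicle, a log2 difference of -0.86 ± 0.09 (edgeR adjusted p = 2.56e-05). Each of the 3 was below every vehicle value in both TPA libraries.

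The share of falls grew with gene length. Among lincRNA and antisense genes it was above that of rises, which was below the share of rises over all tested genes. Of the 2858 protein-coding genes with the longest span, 69994 bases or more, 19.1% were called higher and 35.7% lower. Of the 2860 with the shortest span, 7990 bases or fewer, 32.8% were higher and 16.7% lower. Exonic length gave the same order, with 20.7% higher and 33.8% lower in the longest class of equal size and 31.2% higher and 17.6% lower in the shortest. Of 632 lincRNA genes, 92 rose (14.6%) and 162 fell (25.6%), against 23.2% and 22.8% of all tested genes. Of 1091 antisense genes, 106 rose (9.72%) and 172 fell (15.8%), both below those shares. Reads of the partner gene cannot be told apart there because the strand setting is not given. Of 109 snoRNA genes, 18 rose and 6 fell. RNA integrity was not measured in the files, and its part in the relation to length was not tested.

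**Figure D5:**
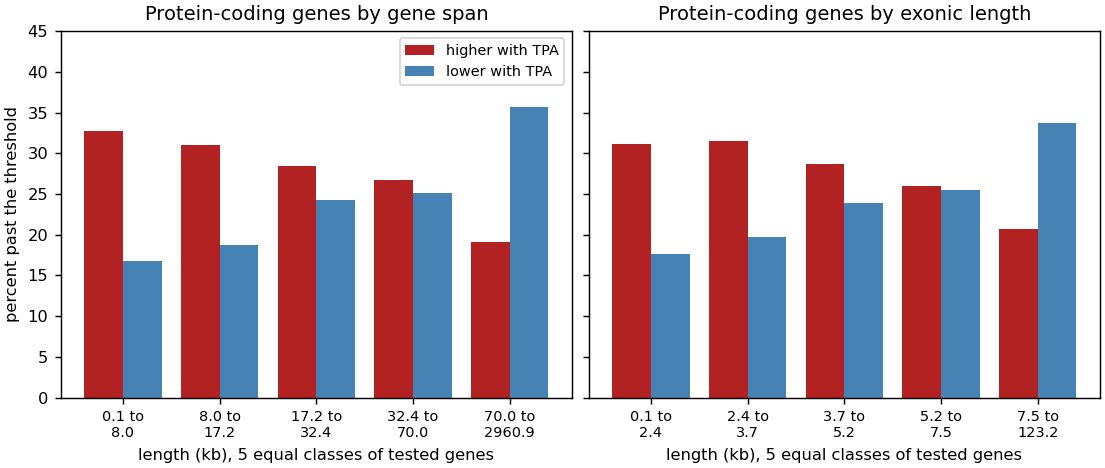
Percent of tested protein-coding genes (vertical axis) called higher (red) or lower (blue) with TPA in 5 equal classes of gene span (left panel) and of exonic length (right panel), in kilobases. The share called lower grows with span to 35.7% in the longest class, against 16.7% in the shortest.

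Among other regulators, 12 of 23 nuclear receptor genes fell and 4 rose (median -0.40), with 6 lower without the knockout TPA library and 2 higher with either TPA library left out. Nr3c1, the glucocorticoid receptor, had 69.1 and 81.7 CPM with TPA, against 132, 164, 156 and 152 CPM in vehicle. Nr1d2, a receptor of the circadian clock, had 62.9 and 58.9 CPM with TPA, against 137, 138, 119 and 99.8 CPM in vehicle. Both were below every vehicle value in the TPA libraries. No vehicle harvest time was given, and the part of harvest time in the fall of the clock gene was not tested. Nr4a3, an immediate-early orphan receptor, rose, with 14.4 and 14 CPM with TPA, against 1.7, 3.36, 4.55 and 4.72 CPM in vehicle. Of 52 Hox and other homeobox genes, 5 rose and 15 fell (median -0.11; -0.31 without the knockout TPA library), and 2 rose and 8 fell when either TPA library was left out. Hoxa7 had 13.6 and 14.1 CPM with TPA, against 29.4, 30.1, 22.4 and 27.9 CPM in vehicle, and fell. The Fox, Sox, Klf, Gata and Cebp factors had 13 rises (24.5%) and 14 falls (26.4%) among 53 (median -0.04), near the shares of all tested genes. Foxm1, a driver of mitotic genes, had 39 and 39.3 CPM with TPA, against 11.1, 9.05, 13.1 and 14.8 CPM in vehicle. Klf10 had 118 and 118 CPM with TPA, against 51.1, 46.8, 47.7 and 55.8 CPM in vehicle. Sox6 had 50.4 and 49.1 CPM with TPA, against 130.1, 119.5, 111 and 105 CPM in vehicle, and fell by 1.22 ± 0.09 on the log2 scale (edgeR adjusted p = 2.31e-06).

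Genes of innate sensing and 3 gasdermin genes rose. Of 45 pattern recognition and inflammasome genes, 26 rose and 8 fell, with a median of 0.64. Without the knockout TPA library 16 rose and 3 fell. The peptidoglycan recognition gene Pglyrp3 had 44.6 and 43.7 CPM with TPA, against 7.29, 9.93, 7.97 and 9.22 CPM in vehicle. The adaptor gene Myd88 had 63.2 and 61.5 CPM with TPA, against 28.1, 31.4, 28.2 and 28.8 CPM in vehicle. Both inflammasome sensor genes Nlrp1a and Nlrp1b fell. Nlrp1a had 6.16 and 11.9 CPM with TPA, against 31.6, 31.9, 56 and 54.7 CPM in vehicle. Nlrp1b, a near copy whose reads the counting could have split, had 7.46 and 11.7 CPM with TPA, against 34.4, 38.2, 44.5 and 44.9 CPM in vehicle. Among 57 p53 target and cell death genes, 16 rose (28.1%) and 13 fell (22.8%), near the shares of all tested genes. Their median of 0.11 was -0.12 with library size alone. The pore-forming gasdermin gene Gsdmc had 244 and 203 CPM with TPA, against 2.03, 4.91, 6.85 and 7.99 CPM in vehicle. Its relative Gsdmc2 had 14.9 and 15.8 CPM with TPA, against 0.339, 0.517, 0.422 and 0.726 CPM in vehicle. Gsdma had 355 and 300.0 CPM with TPA, against 101, 118, 91 and 98.1 CPM in vehicle. The 3 gasdermin genes were above all vehicle values in both TPA libraries. Trp53inp1, a p53-induced gene, had 25.9 and 30.3 CPM with TPA, against 171, 236, 337 and 197 CPM in vehicle, and fell by 3.06 ± 0.23 on the log2 scale (edgeR adjusted p = 2.79e-06).

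Of 34 complement and coagulation genes, 16 rose and 7 fell (median 0.61; 1.12 without the wildtype TPA library). With a minimum count of 50, 10 rose and 6 fell. Cd55, which protects cells from complement, had 15.1 and 14.2 CPM with TPA, against 85, 97.4, 74.9 and 70.3 CPM in vehicle. Thbd, thrombomodulin, had 52.4 and 38.1 CPM with TPA, against 8.42, 6.98, 9.94 and 12.2 CPM in vehicle. C5ar1, the complement C5a receptor of myeloid cells, had 1.11 and 7.23 CPM with TPA, against 0, 0.0517, 0 and 0 CPM in vehicle, and its 4 vehicle libraries together held 1 count. Of 62 interleukin receptor and JAK-STAT genes, 24 rose and 17 fell, with a median of 0.18 that was -0.04 with library size alone. Il4ra, a cytokine receptor chain of type 2 immunity, had 172 and 181 CPM with TPA, against 48.3, 53.2, 48.9 and 41.3 CPM in vehicle. The JAK-STAT feedback gene Socs5 had 74.1 and 86 CPM with TPA, against 26.2, 25.2, 26.8 and 27.7 CPM in vehicle. Il22ra2, a soluble decoy receptor of a skin-acting interleukin, had 4.62 and 5.25 CPM with TPA, against 39.2, 32, 36 and 44.5 CPM in vehicle. The first 2 were above and the decoy below all vehicle values. Of 54 genes of the TNF and TNF receptor superfamilies, 20 rose and 21 fell, with a median of -0.02 (0.10 without the wildtype TPA library and 0.05 without wildtype vehicle replicate 2). Tnfrsf11a, the receptor RANK, had 12.8 and 16.9 CPM with TPA, against 33.1, 29.6, 42.1 and 34.3 CPM in vehicle. The adaptor gene Traf5 had 6.41 and 7.5 CPM with TPA, against 19.4, 18.3, 16.6 and 19.4 CPM in vehicle.

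Markers of other cell types moved with the treatment. Of 9 tested neutrophil markers 8 were higher and none lower, and their summed level was 983 and 449.6 CPM with TPA, against 37.9 to 48.2 CPM in vehicle. Without S100a8 and S100a9, which keratinocytes also express, the sums were 101 and 125 CPM with TPA, against 35.3 to 39.2 CPM in vehicle. Most of these vehicle sums was Mmp9, with 48.8 and 37.8 CPM with TPA, against 31.6 to 34.0 CPM in vehicle. Most of the rise was Cxcr2 and Csf3r. Cxcr2 had 34.8 and 36.3 CPM with TPA, against 0.936 to 2.38 CPM, and Csf3r 11.9 and 34.7 CPM, against 0.136 to 0.395 CPM. Of the defining markers, Elane was at 0 in all 6 libraries and Ly6g had at most 3 counts in each. Camp, Ngp, Retnlg and Stfa2l1 were too low to be tested, and Mpo was not called. Of 12 macrophage and monocyte markers 9 rose and 1 fell, with sums of 143 and 349 CPM with TPA, against 115 to 134 CPM in vehicle. Mrc1 made the largest part of the rise in the sums, with 42.4 and 185 CPM with TPA, against 1.69, 3.87, 1.78 and 3.13 CPM in vehicle. The fall was Csf1r, with 44.9 and 66.2 CPM with TPA, against 93.9, 95.8, 85.1 and 86.9 CPM in vehicle, and Adgre1 was not called. Of 9 Langerhans cell markers 2 rose and 5 fell, with sums of 830.3 and 833 CPM with TPA, against 964 to 1087 CPM in vehicle. The 2 rises, which lift the TPA sums, were Epcam and Mfge8. Epcam had 227 and 220 CPM with TPA, against 118 to 140 CPM in vehicle, and Mfge8 had 153 and 118 CPM, against 39.2 to 61.6 CPM. Cd207 was among the falls, with 11.9 and 12.5 CPM with TPA, against 30.6 to 36.2 CPM in vehicle. Of 10 dendritic epidermal T cell markers 1 rose and 9 fell, with sums of 108 and 116 CPM with TPA, against 117 to 165 CPM in vehicle. The 1 rise was Thy1, also on the fibroblast list, with 51.7 and 44.6 CPM with TPA, against 19.0 to 26.3 CPM in vehicle. Trdc was among the falls, with 2.22 and 1.57 CPM with TPA, against 7.34 to 16.2 CPM in vehicle. The part of these cells in the changes of immune receptors and of other genes that they express was not tested.

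Of 6 tested hair follicle markers 4 rose and none fell, with sums of 6699 and 6455 CPM with TPA, against 742 to 1091 CPM in vehicle. Without Krt17, which activated epidermis also expresses, the sums were 1128 and 1364 CPM with TPA, against 235 to 542 CPM in vehicle. Most of this remainder was Krt79, with 994 and 1245 CPM with TPA, against 219.9, 350.0, 379 and 515 CPM in vehicle. The hair keratin genes Krt35, Krt71 and Krt86 had at most 3 counts in every library. Of 10 fibroblast markers 4 rose and 3 fell, with sums of 687 and 612 CPM with TPA, against 779 to 1328 CPM in vehicle, and of 7 endothelial markers 4 rose and 1 fell. Sebaceous gland markers, 3 of 9 higher and 1 lower, summed to 2362 CPM with TPA against 1677 and 2605 CPM in vehicle in wildtype skin, and to 2566 CPM with TPA against 4601 and 6039 CPM in vehicle in knockout skin, a difference between genotypes that was not tested. None of 10 skeletal muscle markers was called, and their sums were 122 and 176 CPM with TPA, against 38.0 to 691 CPM in vehicle, so the vehicle libraries alone spanned the TPA values. Of 4 mast cell markers 1 rose and 1 fell, of 5 melanocyte, 5 Merkel cell and nerve and 2 erythroid markers 1 each fell, and none of 5 adipocyte markers was called. Of 25 epidermal keratinocyte markers 7 rose and 8 fell, with a median of 0.10 that was -0.12 with library size alone and -0.03 without the wildtype TPA library. Sfn, a cell cycle inhibitor of stratified epithelia, had 496 and 461 CPM with TPA, against 165, 167, 174 and 179 CPM in vehicle. Krt14 had 8013 and 6958 CPM with TPA, against 2751, 2781, 2144 and 2373 CPM in vehicle.

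The response was alike in sign in both genotypes, within the limits of 1 TPA library each. Of all tested genes, 81.8% differed from vehicle in the same direction in wildtype and knockout skin, and of the 8852 called genes, a share that calling over both genotypes together favours, 8846 did. Across genes, which are not independent replicates, the 2 log2 differences had a Pearson r of 0.80 and a Spearman rho of 0.77. Their SD across genes was 1.24 in wildtype and 1.11 in knockout. Of the 609 genes that rose by more than 4-fold, 389 had the larger rise in wildtype, and of the 510 that fell by more than 4-fold, 287 had the larger fall in wildtype. A difference of the response between genotypes was called by edgeR for 1 gene (0.00519% of those tested), with 1014 genes (5.27%) at an unadjusted p under 0.05, and by DESeq2 for 11 genes. That test has 2 residual degrees of freedom, both given by the vehicle replicates, and the single TPA libraries were assumed to vary like them.

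The gene was Lgals4, a galactoside-binding lectin, named after its values were seen. Lgals4 (ENSMUSG00000053964; mm10 chromosome 7, 28833854 to 28841708, plus strand) had 46.6 CPM in the wildtype TPA library and 7.86 CPM in the knockout TPA library, against 10.9 and 10.1 CPM in the wildtype vehicle libraries and 11.3 and 9.81 CPM in the knockout vehicle libraries. The wildtype TPA library alone stood above all others. Its log2 difference was 2.15 in wildtype and -0.42 in knockout, and the response in knockout minus that in wildtype was -2.57 ± 0.26 (edgeR adjusted p = 0.0326). With a minimum count of 50 edgeR no longer called Lgals4. Over both genotypes Lgals4 was not called (0.91 ± 0.52, edgeR adjusted p = 0.175).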

How the data were processed

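RNA from scraped mouse epidermis was sequenced in 8 libraries. The deposited files hold raw read counts per Ensembl gene, which the authors had not normalised. Reads were trimmed with Trim Galore, aligned to mm10 with STAR and counted with HTSeq, per the submitters' processing notes. Versions, annotation release and strand setting were not stated there or in the labels, so overlapping, antisense and near-identical genes are uncertain. Of 54232 identifiers, 54165 matched GENCODE M21 annotation, which gave symbols, coordinates and lengths. All 13 mitochondrial protein genes were listed at 0. Groups came from the labels. The vehicle replicates differed by more than sampling noise (chi-square per degree of freedom 31.1 in wildtype and 13.8 in knockout).

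Quasi-likelihood F tests of the counts were run in edgeR 4.0.16 (R 4.3.3), with TMM factors between 0.859 and 1.102 and a minimum count of 10. The additive model of genotype and treatment used all 8 libraries and had 4 residual degrees of freedom. The genotype difference used 1 mean per group with 2. Standard errors were the absolute log2 difference divided by the square root of F. Adjustment was by Benjamini-Hochberg over 19251 genes at a threshold of 0.05. Both fits were tested on simulated data, where the fit of the genotype difference missed most 2-fold differences. The sampling limit of 3 counts covers counting error only.

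Genes were named by a rule: Ddit4; among called genes whose mean log2 CPM reached 2, with the same sign in both genotypes and no overlap, the 12 largest rises and falls and the 8 largest CPM gains and losses; 6 genes each with at most 3 counts in every vehicle or every TPA library; and up to 4 called members per list with the smallest p. Identifiers, Gm and Rik names were left out of the ranked parts. Not every gene so named is described. Lgals4 and the genes of the printed promoters were chosen after their values were seen. The comparison, the 41 gene groups and the 14 cell type lists were chosen with earlier results of these data known. Alternatives were RLE factors, library size only, removal of Gm26917, a minimum count of 50 or no filter, a separate mean for each group, the 6 TPA and vehicle libraries only, limma-voom (limma 3.58.1), DESeq2 1.42.0 and each library left out in turn.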

Additional observations from a re-analysis of the deposited data

Results flagged for a closer look

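Lgals4 was picked out because its response to TPA differed between genotypes in a test of the difference itself. The response in knockout minus that in wildtype was -2.57 ± 0.26 on the log2 scale (edgeR adjusted p = 0.0326). It was 46.6 CPM in the wildtype TPA library and 7.86 CPM in the knockout TPA library, against 9.81 to 11.3 CPM in the 4 vehicle libraries. The value rests on 1 wildtype TPA library, and the edgeR call was lost with a minimum count of 50. No group had 4 or more libraries, so no library was tested for standing apart from its group.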

How the results depend on the processing

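Every one of the 202 genes taken by the naming rule kept its direction and its call under each of the 17 alternatives that tested it. Apart from Ddit4, the rule took them for large changes, near absence in 1 treatment or small p in the same libraries. Their choice thus favoured this outcome, which does not stand for all calls. The count of genes higher with TPA, 4472, was 2846 with library size only and ranged from 3263 to 4503 when 1 library was left out. The count of genes lower, 4380, ranged from 2752 (without the knockout TPA library) to 4348 when 1 library was left out, and was 2786 without the wildtype TPA library. Of the calls, 64.3% were kept without the wildtype TPA library, 67.1% without the knockout TPA library and 81.6% with library size only. Genes higher by more than 2-fold numbered 1129 with a minimum count of 50, against 1711 with 10. The number of genes whose response differed by genotype was 3 with library size only, 21 without a low-count filter, 0 with a minimum count of 50 and 11 with DESeq2. The cause was not tested. Genes of the same sign in both genotypes ranged from 64.8% (no low-count filter) to 85.7% (minimum count of 50). That share could not be had with a TPA library left out. No paired analysis was possible because the TPA libraries carry no replicate number. A single TPA library per genotype limits the precision of every value above.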
